A study of Mus musculus with 19 samples.

Results

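The Myc family and its Mxd antagonists were followed through the RNA and open-chromatin data of mouse blood stem and progenitor cells. The genes were chosen by symbol, and the 9 listed symbols (Myc, Mycn, Mycl, Max, Mxd1, Mxd3, Mxd4, Mxi1 and Mnt) were all found among the 25124 genes of the exon count table. All 9 were among the 14720 genes with enough counts to be tested. The study sorted 2 cell types at 2 ages from C57BL/6 mice, and the labels give no allele or treatment. Adult cells came from bone marrow (ABM) at 12 weeks and fetal cells from the liver (FL) at E14.5. Haematopoietic stem cells (HSC) were sorted as cKit+ Sca1+ CD48- CD150+ Flt3- cells and lymphoid-primed multipotent progenitors (LMPP) as cKit+ Sca1+ CD48+ CD150- Flt3+ cells. Cells with CD3, Gr1, B220 or Ter119 on their surface were excluded at both ages, and cells with CD11b in the adult marrow alone. RNA was sequenced from 3 adult HSC, 2 fetal HSC, 3 adult LMPP and 3 fetal LMPP libraries. ATAC-seq, which cuts accessible DNA with a transposase, is represented by 1 peak list for each of these 4 groups. The series calls the samples biological replicates, and no source used here states how many animals stand behind each library.

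Myc, Mycn and Mycl encode basic helix-loop-helix leucine-zipper transcription factors that bind E-box DNA, typically CACGTG, as heterodimers with Max, and promote transcription of genes for ribosome production, metabolism and cell division. The Mxd proteins, Mxi1 (also called Mxd2) and Mnt pair with the same partner, bind the same sites and recruit Sin3 and histone deacetylase corepressors. In the mouse haematopoietic system Myc and Mycn are known to act together in stem cells, and loss of Myc is known to impair the exit of stem cells from their niche towards differentiation.

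The promoters of 8 of the 9 genes, all but Myc, were found in the RefSeq promoter table for GRCm38.p6, in 10 windows because Mxi1 has 3 entries. A script searched each window, from 250 bases before the start site to 20 bases from the start onward, for the E-box CACGTG. The motif is its own reverse complement, so one search covers both strands, and no other motif was searched. It was found in the windows of 3 genes, Max, Mnt and Mxd4, and in 6.57% of all 32851 windows of this length. The windows of these 3 genes are shown for the position of the motif, and that of Mycn is shown as the family gene called with age in LMPP, with capitals marking the E-box where there is one. The Max window lies at chr12:76962229-76962498 on the minus strand, that of Mnt at chr11:74830674-74830943 on the plus strand, that of Mxd4 at chr5:34187691-34187960 on the minus strand and that of Mycn at chr12:12941817-12942086 on the minus strand.
Max: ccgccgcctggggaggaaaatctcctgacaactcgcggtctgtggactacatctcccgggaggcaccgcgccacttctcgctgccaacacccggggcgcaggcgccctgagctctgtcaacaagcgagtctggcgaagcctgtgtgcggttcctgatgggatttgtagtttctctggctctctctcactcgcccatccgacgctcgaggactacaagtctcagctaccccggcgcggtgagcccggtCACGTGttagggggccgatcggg
Mnt: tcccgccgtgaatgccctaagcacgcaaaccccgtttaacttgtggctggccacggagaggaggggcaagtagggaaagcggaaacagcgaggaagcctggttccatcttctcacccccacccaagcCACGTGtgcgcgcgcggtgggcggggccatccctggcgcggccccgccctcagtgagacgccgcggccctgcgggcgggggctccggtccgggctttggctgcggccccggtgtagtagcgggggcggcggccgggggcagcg
Mxd4: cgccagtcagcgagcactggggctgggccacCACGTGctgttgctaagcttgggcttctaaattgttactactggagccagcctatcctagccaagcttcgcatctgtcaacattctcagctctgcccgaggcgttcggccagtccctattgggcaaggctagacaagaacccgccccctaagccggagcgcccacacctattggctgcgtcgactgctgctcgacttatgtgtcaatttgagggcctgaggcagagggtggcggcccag
Mycn: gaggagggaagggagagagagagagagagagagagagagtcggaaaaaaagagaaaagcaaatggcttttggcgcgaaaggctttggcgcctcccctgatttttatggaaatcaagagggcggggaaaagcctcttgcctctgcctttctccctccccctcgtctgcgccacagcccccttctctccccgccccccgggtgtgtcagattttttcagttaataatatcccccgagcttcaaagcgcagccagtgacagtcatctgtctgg
The motif begins 3 bases before the start site in Max, so that it spans the start, 123 bases before it in Mnt and 219 bases before it in Mxd4. Each of these 4 windows overlapped an ATAC peak in all 4 peak lists. The GC content was 64.1% for Max, 71.9% for Mnt, 59.6% for Mxd4 and 54.4% for Mycn.

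Total counts ran from 19.8 M to 64.78 M per library, and 3 counts, taken as the detection floor, corresponded to 0.0498 to 0.152 CPM (counts relative to library size, scaled by TMM). On the third principal component (10.4% of the variance) fetal LMPP 1, adult LMPP 3 and adult HSC 3 stood apart, at −57.5, −24.5 and −89.1 against −5.96 to 51.4 in the other 8 libraries. These 3 libraries also held the lowest Mxd1 and Mnt and the highest Mxd3 of their groups, and counts are given below with and without them. Without them more of all genes were called in every comparison, so the shares of the full fit are no base for those counts. The HSC marker genes (Procr, Slamf1, Hlf, Mecom, Fgd5 and Ctnnal1) summed to 334 to 706 CPM in adult HSC and 794 to 972 CPM in fetal HSC, against 80.3 to 148 CPM in the LMPP libraries of both ages. Of these, Slamf1 encodes CD150, which was used in the sort. The LMPP markers (Flt3, Cd48, Satb1, Il7r, Cd52 and Dntt), of which Flt3 and Cd48 were used in the sort, summed to at least 2870 CPM in adult LMPP and 1130 CPM in fetal LMPP, and to at most 78.2 CPM in HSC. Dntt was at 0 counts in all 3 fetal LMPP libraries.

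Myc (chromosome 15, 61985341 to 61990361, plus strand, mm10) was abundant in 3 of the 4 groups and lowest in fetal HSC. Its level was 472, 373 and 522 CPM in the adult HSC libraries and 154 and 139 CPM in the fetal HSC libraries. It was 594, 660 and 736 CPM in adult LMPP and 564, 582 and 529 CPM in fetal LMPP. Every fetal HSC library thus lay far below every other library, while the LMPP libraries of the 2 ages lay close together. In HSC, Myc fell by 1.64 ± 0.17 on the log2 scale from adult to fetal (SE; edgeR quasi-likelihood, Benjamini-Hochberg adjusted p = 0.00045), a level 3.11-fold lower in the fetal cells. In bulk RNA, fewer cells expressing the gene and less RNA per cell cannot be told apart. In LMPP the fetal minus adult difference was −0.25 ± 0.14 (95% interval −0.57 to 0.07, adjusted p = 0.28). LMPP held more Myc than HSC at both ages, by a log2 difference of 0.54 ± 0.14 in the adult (1.46-fold, adjusted p = 0.027) and 1.93 ± 0.17 in the fetus (3.81-fold, adjusted p = 2e-04). The adult call did not hold when only the 2 groups compared were fitted (adjusted p = 0.093) or when adult HSC 1, adult HSC 2, adult LMPP 2 or adult LMPP 3 was left out (0.063, 0.082, 0.062 and 0.082).

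Mycn (chromosome 12, 12936093 to 12941836, minus strand), which in many other tissues is expressed mainly in the embryo, had a different order. Its level was 370, 353 and 441 CPM in adult HSC and 500 and 533 CPM in fetal HSC. It was 53.5, 48.6 and 60.2 CPM in adult LMPP and 358, 193 and 270 CPM in fetal LMPP. The 3 adult LMPP libraries were the lowest of the series and fetal HSC the highest, and adult HSC and fetal LMPP, the neighbours between them, overlapped by 1 library (353 against 358 CPM). In LMPP, Mycn was 5.06-fold higher in the fetus than in the adult (log2 difference 2.34 ± 0.21, adjusted p = 1e-04). The HSC libraries of the 2 ages did not overlap, but the difference of 0.41 ± 0.22 did not pass the test (adjusted p = 0.37) and passed only without the 3 libraries that stood apart (0.50, adjusted p = 0.046) or with a term for them (adjusted p = 0.033). LMPP held less Mycn than HSC at both ages, 7.17-fold less in the adult (log2 difference −2.84 ± 0.22, adjusted p = 2.7e-05) and 1.89-fold less in the fetus (−0.92 ± 0.22, adjusted p = 0.02). The fetal difference lost its call without fetal HSC 1 (adjusted p = 0.084), fetal HSC 2 (0.14) or fetal LMPP 3 (0.053).

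Mycl (chromosome 4, 122995931 to 123002480, plus strand), the third family gene, was counted only in LMPP. It had 0 counts in all 5 HSC libraries. Adult LMPP held 52, 45 and 34 counts (2.63, 1.26 and 1.11 CPM) and fetal LMPP 131, 133 and 145 counts (2.33, 4.92 and 6.16 CPM), so the LMPP ranges of the 2 ages overlapped. Against the floor of 3 counts per HSC library, averaged over the group, Mycl was at least 20.6-fold higher in adult LMPP than in adult HSC (adjusted p = 0.0015) and at least 46.8-fold higher in fetal LMPP than in fetal HSC (adjusted p = 0.0031). The gene was kept for testing through its LMPP counts alone, so the filter itself favoured these 2 calls. The fetal minus adult difference in LMPP was 1.42 ± 0.62 on the log2 scale (adjusted p = 0.17). Even in fetal LMPP, 71.6% of tested genes had a higher level per kilobase of exon.

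**Figure D1:**
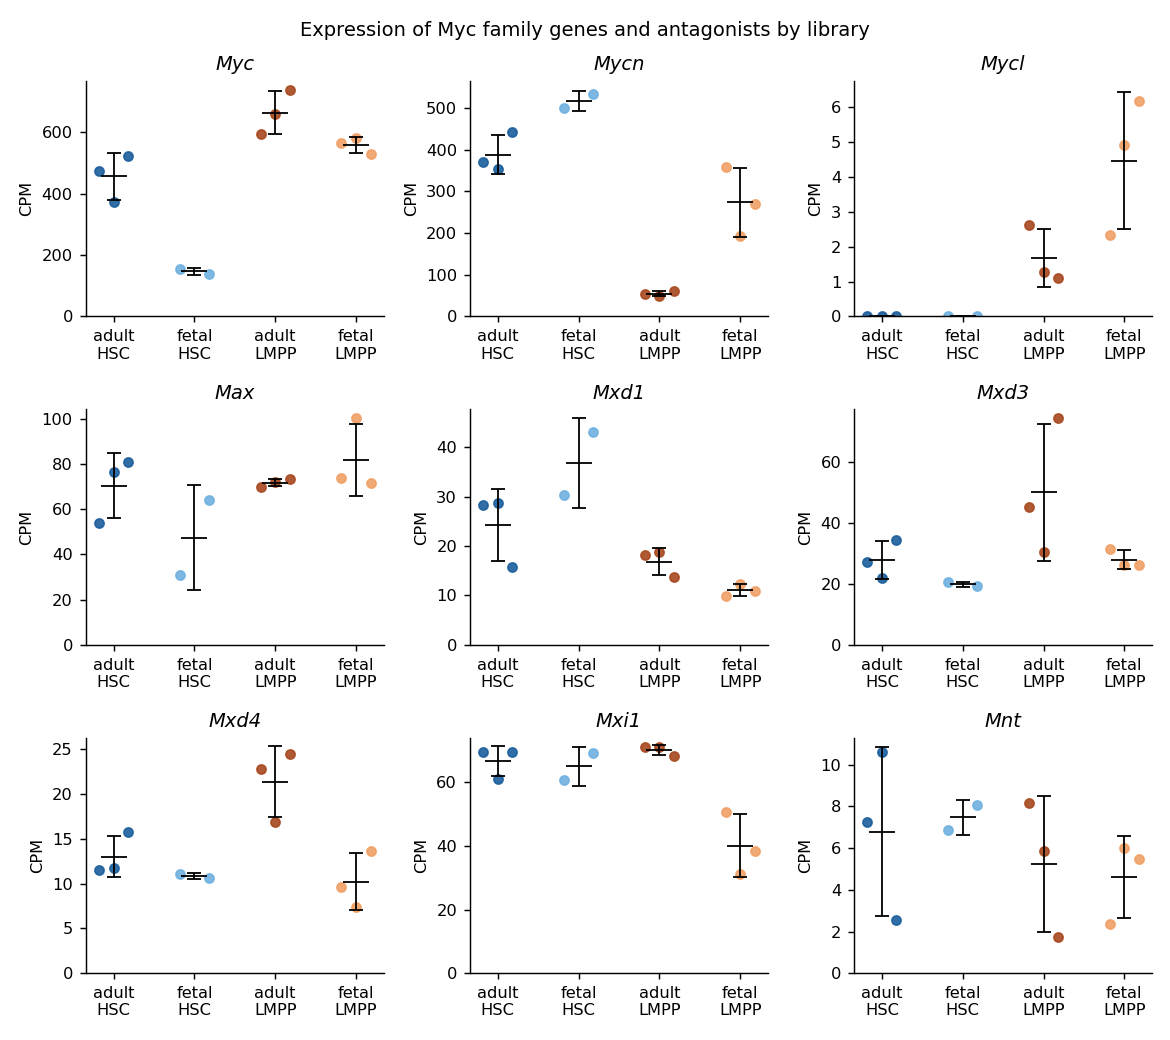
Expression of the 9 genes in each library, in CPM on linear axes that start at 0. Points are libraries, and the bars show the group mean ± SD (n = 3, or 2 for fetal HSC). Myc is lowest in the 2 fetal HSC libraries (139 and 154 CPM), Mycn in the 3 adult LMPP libraries (48.6 to 60.2 CPM), and Mycl is at 0 in all HSC libraries.

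For Myc and Mycn the difference with age also differed between the 2 cell types. The fetal minus adult difference of Myc was larger in LMPP than in HSC by 1.39 ± 0.22 on the log2 scale (interaction, adjusted p = 0.017), and that of Mycn by 1.93 ± 0.31 (adjusted p = 0.019). For Myc this came from a fall in fetal HSC with a difference in LMPP that did not pass the test, and for Mycn from a rise in fetal LMPP with a difference in HSC that did not pass. These were the 2 of 9 genes called in the interaction, against 0.931% of all tested genes in either direction and 0.387% in theirs (higher). Both lost the call without fetal HSC 1 (adjusted p = 0.078 for Myc and 0.12 for Mycn), without fetal HSC 2 (0.15 and 0.14) or without adult LMPP 1 (0.053 and 0.062). Without the 3 libraries that stood apart both were called (adjusted p = 0.0053 and 0.0042), and Mxi1 was also called (−1.02, adjusted p = 0.026).

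To compare levels between the 3 genes, CPM was divided by the exon length of the listed transcript (CPM per kb). The share of Mycn in the summed level of the 3 genes was 42.0%, 46.6% and 43.8% in the adult HSC libraries and 75.0% and 78.0% in the fetal HSC libraries. In LMPP it was 7.65%, 6.35% and 7.02% in the adult and 36.9%, 23.4% and 31.9% in the fetus. No 2 groups overlapped: Mycn was the larger part in fetal HSC alone, the 2 genes were closest in adult HSC, and Myc made up 92.1% to 93.5% in adult LMPP. The ratio of Myc to Mycn was 1.27 ± 0.118 in adult HSC (SD, n = 3), 0.308 ± 0.0369 in fetal HSC (n = 2), 13.3 ± 1.34 in adult LMPP (n = 3) and 2.36 ± 0.805 in fetal LMPP (n = 3). The summed level varied much less than its composition, at 340 ± 48.2, 261 ± 4.4, 299 ± 31 and 340 ± 30 CPM per kb in the same order. Mycl contributed at most 0.515% in any library. In adult HSC, 3.04% of tested genes had a higher level per kb than Myc and 4.18% a higher one than Mycn, while in fetal HSC these were 11.2% and 2.76%, and in adult LMPP 2.38% and 30.4%.

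**Figure D2:**
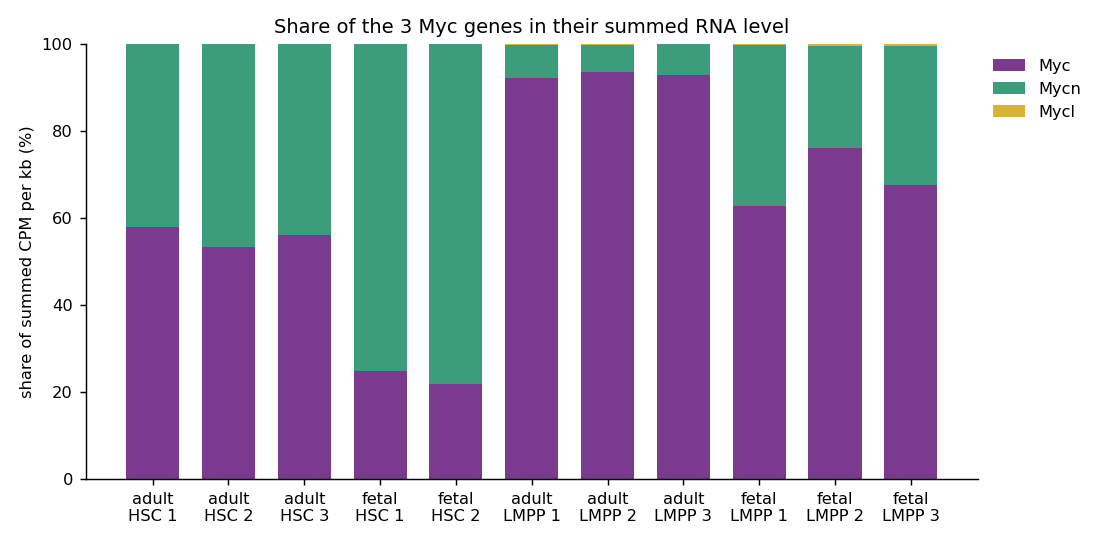
Share of Myc, Mycn and Mycl in their summed level per kb of exon, in percent, for each of the 11 libraries. Each stacked bar is 1 library; the Mycn share runs from 6.35% to 7.65% in adult LMPP to 75.0% and 78.0% in fetal HSC.

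Max (chromosome 12, 76937269 to 76962248, minus strand), the shared partner, showed no called difference. Its level was 54.1, 76.3 and 80.8 CPM in adult HSC, 31.0 and 64.0 CPM in fetal HSC, 70.0, 72.0 and 73.4 CPM in adult LMPP and 73.8, 100 and 71.7 CPM in fetal LMPP. The 2 fetal HSC libraries were far apart, and both lay below every fetal LMPP library. The fetal LMPP minus HSC difference was 0.78 ± 0.30 (95% interval 0.11 to 1.46, adjusted p = 0.099) and passed only without fetal HSC 2 (1.40, adjusted p = 0.044). The fetal minus adult differences were −0.57 in HSC (95% interval −1.23 to 0.10) and 0.19 in LMPP (−0.40 to 0.78). Per kb, Max lay below Myc in every group, and above Mycn in adult LMPP alone (35.9 against 20.9 CPM per kb). The sum of the 3 Myc genes was 9.94 ± 2.47 times the level of Max in adult HSC and 12.4 ± 5.92 times in fetal HSC. It was 8.3 ± 0.669 times in adult LMPP and 8.54 ± 1.96 times in fetal LMPP.

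Among the antagonists, Mxd1 (chromosome 6, 86647045 to 86669159, minus strand), a gene that rises in many cell types as they differentiate, was lower in fetal LMPP than in fetal HSC. Its level was 30.3 and 43.2 CPM in fetal HSC against 9.86, 12.3 and 11 CPM in fetal LMPP, with no overlap. The difference was −1.74 ± 0.30 on the log2 scale, or 3.33-fold less (adjusted p = 0.0041), and it lost its call without fetal HSC 2 (adjusted p = 0.059). Adult HSC held 28.2, 28.8 and 15.8 CPM and adult LMPP 18.1, 18.7 and 13.7 CPM, which overlapped at adult HSC 3. The adult difference was −0.52 ± 0.27 (adjusted p = 0.23) and passed without adult HSC 3 (adjusted p = 0.042) and without the 3 libraries that stood apart (−0.64, adjusted p = 0.042). The fetal minus adult differences were 0.60 in HSC (adjusted p = 0.32) and −0.61 in LMPP (adjusted p = 0.16), and the latter passed without the 3 libraries (−0.68, adjusted p = 0.035). Mxd1 overlaps the RefSeq long noncoding gene Gm38850, and the labels state no strand for the counting, so the reads of the 2 genes may not be separable.

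Mxi1 (chromosome 19, 53329413 to 53373293, plus strand) and Mxd4 (chromosome 5, 34176580 to 34187710, minus strand) were the 2 antagonists called with age in LMPP. Mxi1 was 71.1, 71.0 and 68.2 CPM in adult LMPP and 50.6, 31.1 and 38.5 CPM in fetal LMPP. It was thus lower in every fetal LMPP library, by 0.80 ± 0.19 on the log2 scale (fold 0.572, adjusted p = 0.016), and lost this call without fetal LMPP 2 (0.058) or fetal LMPP 3 (0.057). In HSC it was 69.4, 61.1 and 69.3 CPM in the adult and 60.6 and 69.1 CPM in the fetus, so that the HSC and adult LMPP libraries all lay between 60.6 and 71.1 CPM. Fetal LMPP held less Mxi1 than fetal HSC (−0.69 ± 0.20, adjusted p = 0.04), a call lost without fetal HSC 1 (0.12), fetal HSC 2 (0.27), fetal LMPP 2 (0.12) or fetal LMPP 3 (0.097) and with no filter on low counts (0.051).

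Mxd4 was 22.7, 16.9 and 24.4 CPM in adult LMPP and 9.59, 7.39 and 13.6 CPM in fetal LMPP. The ranges did not overlap, and the fetal level was 2.09-fold lower (log2 difference −1.07 ± 0.27, adjusted p = 0.025). The call was lost without adult LMPP 1 (adjusted p = 0.073), adult LMPP 3 (0.067), fetal LMPP 1 (0.066) or fetal LMPP 2 (0.091). Adult HSC held 11.5, 11.8 and 15.7 CPM and fetal HSC 11.1 and 10.6 CPM, close to fetal LMPP. The adult LMPP minus HSC difference was 0.71 ± 0.27 (95% interval 0.11 to 1.31, adjusted p = 0.1), with no overlap of the libraries.

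Mxd3 (chromosome 13, 55325170 to 55329731, minus strand), the family member expressed in dividing cells, had no called difference. Its level was 27.2, 22.0 and 34.2 CPM in adult HSC, 20.5 and 19.2 CPM in fetal HSC, 45.2, 30.3 and 74.3 CPM in adult LMPP and 31.4, 26.2 and 26.2 CPM in fetal LMPP. Adult LMPP was the highest and most scattered group, and adult LMPP 3, one of the 3 libraries that stood apart, was its highest library. Fetal minus adult LMPP was −0.84 ± 0.30 (adjusted p = 0.087) and adult LMPP minus HSC 0.84 ± 0.30 (adjusted p = 0.084). Both passed with DESeq2 (adjusted p = 0.044 and 0.045) and without adult LMPP 2 (0.03 and 0.024). Without adult LMPP 3 they were −0.43 (adjusted p = 0.29) and 0.44 (0.31). Without the 3 libraries that stood apart they were −0.54 (0.087) and 0.61 (0.06). With a term for those libraries the difference between ages passed (0.012). Mxd3 shares 103 bases with Prelid1 on the opposite strand in the annotation of the count table. Mnt (chromosome 11, 74830924 to 74845725, plus strand), the most widely expressed antagonist in the mouse, was low throughout, at 1.74 to 10.6 CPM in single libraries, with no called difference. Its 95% interval for fetal minus adult HSC ran from −1.38 to 1.67.

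Summed per kb, the 5 antagonists were at 60.3 to 71.9 CPM per kb in the 3 adult HSC libraries, 57.8 to 62.9 in the 2 fetal HSC libraries, 72.0 to 109 in the 3 adult LMPP libraries and 43.2 to 55.7 in the 3 fetal LMPP libraries. Mxi1 and Mxd3 made up most of it: 39.0% to 44.4% was Mxi1 and 23.7% to 36.9% Mxd3 in the HSC libraries, against 25.2% to 39.9% and 32.7% to 52.7% in the LMPP libraries. The ratio of the 3 Myc genes to the 5 antagonists was 5.10, 4.84 and 5.40 in adult HSC and 4.45 and 4.19 in fetal HSC. It was 3.03, 4.10 and 3.03 in adult LMPP and 6.73, 7.39 and 6.41 in fetal LMPP. Adult LMPP was thus the lowest group and fetal LMPP the highest, with HSC of both ages between them and no overlap of groups. These ratios are of RNA and were not tested.

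**Figure D3:**
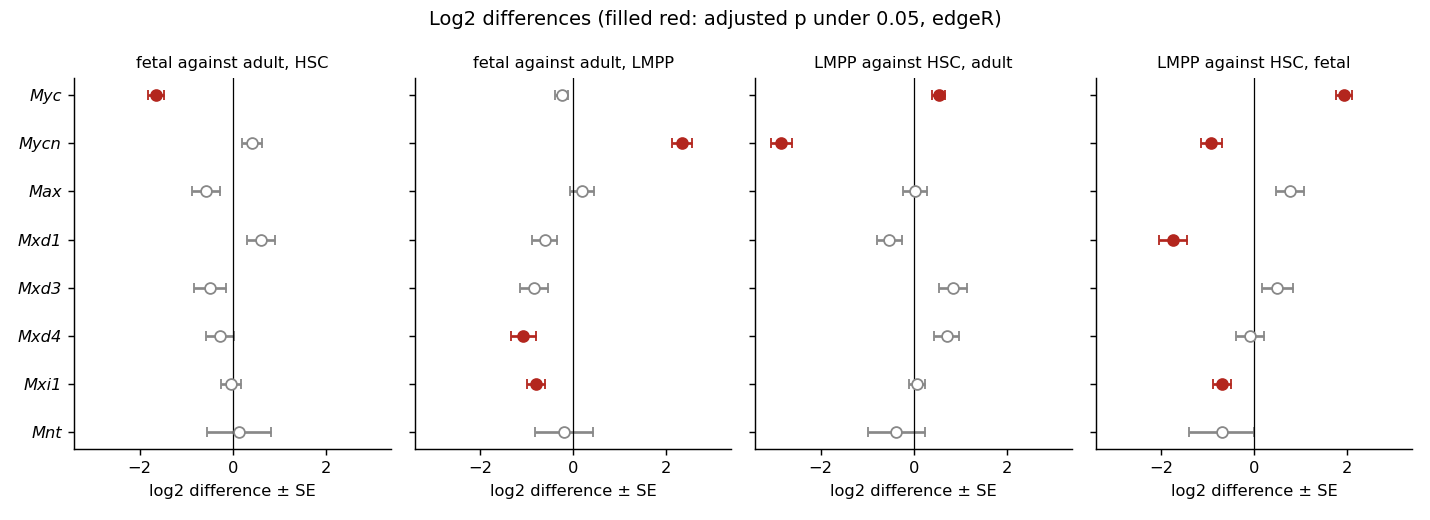
Log2 differences ± SE of 8 of the genes in the 4 comparisons, from the edgeR fit over all 11 libraries; Mycl is left out because its HSC libraries are at 0. Filled red points have an adjusted p under 0.05: Myc in fetal against adult HSC, Mycn, Mxd4 and Mxi1 in fetal against adult LMPP, Myc and Mycn in adult LMPP against HSC, and Myc, Mycn, Mxd1 and Mxi1 in fetal LMPP against HSC.

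By comparison, 1 of the 9 genes was called between fetal and adult HSC (Myc, lower), where 4.95% of all tested genes were called. Between fetal and adult LMPP 3 were called (Mycn higher, Mxi1 and Mxd4 lower), against 15.4% of tested genes. Between adult LMPP and HSC 3 were called (Mycl and Myc higher, Mycn lower), against 17.1%, and between fetal LMPP and HSC 5 (Mycl and Myc higher, Mxd1, Mycn and Mxi1 lower), against 18.1% (8.21% higher and 9.85% lower). Mycl enters the counts of both cell type comparisons, here and below, though it was kept for testing through its LMPP counts alone. Without the 3 libraries that stood apart the counts were 2, 4, 4 and 5. Of all genes 2337, 4410, 4308 and 5549 were then called, against 729, 2263, 2516 and 2658 with all libraries. The count between adult LMPP and HSC was 5 with a term for those libraries, where 4713 of all genes were called. The count between ages in LMPP was 1 without fetal LMPP 2 and 5 with the term, and that between fetal LMPP and HSC was 3 without fetal HSC 1, fetal HSC 2 or fetal LMPP 3. The libraries of the 2 groups did not overlap for 5, 5, 4 and 8 of the 9 genes in the same order, against 41.0%, 34.7%, 31.8% and 60.9% of all tested genes. The median log2 difference of the members was −0.15 (8 genes, without Mycl), −0.25, 0.07 and −0.09, beside 0, 0, −0.05 and −0.08 over all tested genes. The 2 age comparisons within HSC and LMPP share libraries with the 2 comparisons between cell types.

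Genes of the wider pathway were described by lists of textbook members. The lists were chosen with earlier results of these data known, so their counts are description and no independent test. Of 30 genes that Myc is known to activate, 15 were higher in fetal than in adult LMPP and none lower (median log2 difference 0.86, beside 0 over all tested genes, of which 7.08% were higher). They included Hspd1, the mitochondrial chaperonin (574 against 1360 CPM, log2 difference 1.25 ± 0.13, adjusted p = 0.00027), Ddx18, an RNA helicase of ribosome assembly (105 against 202 CPM, 0.95 ± 0.12, adjusted p = 0.00069), and Ldha (1.32 ± 0.10, adjusted p = 3.7e-05). In fetal LMPP against fetal HSC 21 of the 30 were higher and none lower (median 0.90, beside −0.08 over all tested genes, of which 8.21% were higher). Among them were Odc1, which makes the first polyamine (159 against 351 CPM, 1.15 ± 0.14, adjusted p = 0.00083), Nme2, a nucleoside diphosphate kinase (128 against 277 CPM, 1.11 ± 0.15, adjusted p = 0.0012), and Hspd1 (1.14 ± 0.15, adjusted p = 0.0012). This count was 12 without fetal HSC 1 and 5 without fetal HSC 2.

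None of the 30 was called by edgeR between fetal and adult HSC (median 0.20, beside 0), where 2.07% of all tested genes were higher, with 8 at an unadjusted p under 0.05, while DESeq2 called 2 and edgeR 1 without adult HSC 3. In the adult, 5 were higher in LMPP than in HSC and 2 lower (median 0.23, beside −0.05), against 7.76% and 9.33% of all tested genes. Cdk4, the G1 cyclin-dependent kinase, rose (486 against 783 CPM, 0.69 ± 0.14, adjusted p = 0.008), as did Nme2 (0.56 ± 0.13, adjusted p = 0.013), and Ccnd2, cyclin D2, fell (478 against 369 CPM, −0.38 ± 0.11, adjusted p = 0.034). These 7 calls became 1 with only the 2 groups fitted, 3 without adult HSC 1, adult HSC 2 or adult LMPP 3, and 2 without adult LMPP 1 or adult LMPP 2. The mean level was highest in fetal LMPP for 28 of the 30 genes, and the share over all tested genes was not computed. Of the lists described below, it was highest there for 8 of 12 genes of dividing cells and 9 of 14 coactivators. The same held for 8 of 12 genes of Myc protein stability, 5 of 10 corepressors, 1 of 3 partners of Max and Mlx and 1 of 11 repressed targets. The fetal minus adult difference was larger in LMPP than in HSC for 2 of the 30 activated targets in the interaction, Odc1 (1.07 ± 0.18, adjusted p = 0.025) and Ldha (1.06 ± 0.15, adjusted p = 0.013). No list gene was called there without fetal HSC 1 or fetal HSC 2, 1 without adult HSC 1, adult HSC 2, adult LMPP 1 or fetal LMPP 2, and 6 with DESeq2. Without the 3 libraries that stood apart, the calls in the list were 7 between ages in HSC, 27 between ages in LMPP, 12 between cell types in the adult, 27 in the fetus and 9 in the interaction. Of all genes 2337, 4410, 4308, 5549 and 789 were then called, in the same order.

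The 11 tested of 12 genes known to be repressed by Myc did not move one way. Ndrg1, a stress-response gene, was far lower in the fetus in both cell types, at 151 against 5.54 CPM in HSC (−4.77 ± 0.53, adjusted p = 6e-04) and 131 against 5.37 CPM in LMPP (−4.59 ± 0.44, adjusted p = 0.00014). Cdkn2c, the CDK inhibitor p18, was lower too, at 28.5 against 0.652 CPM in HSC (−5.48 ± 1.14, adjusted p = 0.02) and 40.2 against 0.634 CPM in LMPP (−6.12 ± 0.98, adjusted p = 0.0027). Cdkn1c, the CDK inhibitor p57, went the other way in LMPP (4.87 against 31.5 CPM, 2.70 ± 0.34, adjusted p = 0.00068). In HSC no list gene was higher and these 2 were lower (median −0.56, with 2.89% of all tested genes lower). In LMPP 1 was higher and 4 lower (median −0.95, with 7.08% and 8.29% of all genes), Gadd45a and Cdkn1a being the others. The HSC count was 1 without fetal HSC 1 or fetal HSC 2. It was 6 without the 3 libraries that stood apart, where 2337 of all genes were called.

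Between cell types, 3 of the repressed targets were higher in LMPP at both ages. They were the CDK inhibitor Cdkn1a (4.18 against 26.2 CPM in the adult, 2.65 ± 0.31, adjusted p = 3e-04; 2.56 against 10.3 CPM in the fetus, 2.00 ± 0.35, adjusted p = 0.0045), the integrin gene Itgal (adult 3.48 ± 0.45, adjusted p = 0.00063) and Cebpa, a myeloid transcription factor (fetal 5.86 ± 1.09, adjusted p = 0.0057). Cdkn1c was lower in LMPP at both ages (adult −3.89 ± 0.35, adjusted p = 7.3e-05; fetal −1.92 ± 0.34, adjusted p = 0.0049), and the counts lower were 2 in the adult and 3 in the fetus. Of all tested genes 7.76% were higher and 9.33% lower in the adult, and 8.21% and 9.85% in the fetus. The medians were 0.40 in the adult, over the 10 genes above the floor, and −0.14 in the fetus, beside −0.05 and −0.08 over all tested genes. The 6 fetal calls became 2 without fetal HSC 1 or fetal HSC 2.

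Genes of dividing cells were measured beside the targets because many Myc targets rise in the cell cycle. Of 12 such genes edgeR called none between ages in HSC (median 0.35), where 4.95% of all tested genes were called. DESeq2 also called none there, and 0 had an unadjusted p under 0.05 in the edgeR fit. Without the 3 libraries that stood apart 1 was called, where 2337 of all genes were called. Between ages in LMPP 3 were higher in the fetus (Mcm5, Mcm2 and Rrm2, median 0.33), against 7.08% of all tested genes. In LMPP against HSC, 7 were higher in the adult, against 7.76%, led by Ccna2 (1.01 ± 0.18, adjusted p = 0.004) and Top2a (1.18 ± 0.28, adjusted p = 0.017), and 4 in the fetus, against 8.21%, led by Rrm2 (1.40 ± 0.26, adjusted p = 0.0062). The 3 calls fell to 0 without adult LMPP 1 and 1 without fetal LMPP 2 or fetal LMPP 3. The 7 became 2 with only the 2 groups fitted or without adult HSC 1 or adult HSC 2, 1 without adult LMPP 1 and 3 without adult LMPP 3. The 4 became 2 without fetal HSC 1, 0 without fetal HSC 2, 8 with DESeq2 and 10 without the 3 libraries. Of all genes DESeq2 called 3742 in that comparison, and 5549 were called without the 3 libraries. Their summed level was 1930 to 2540 CPM in adult HSC, 2510 to 3200 in fetal HSC, 3400 to 4200 in adult LMPP and 4540 to 5290 in fetal LMPP. The part of cycling cells in the target results was not tested.

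**Figure D4:**
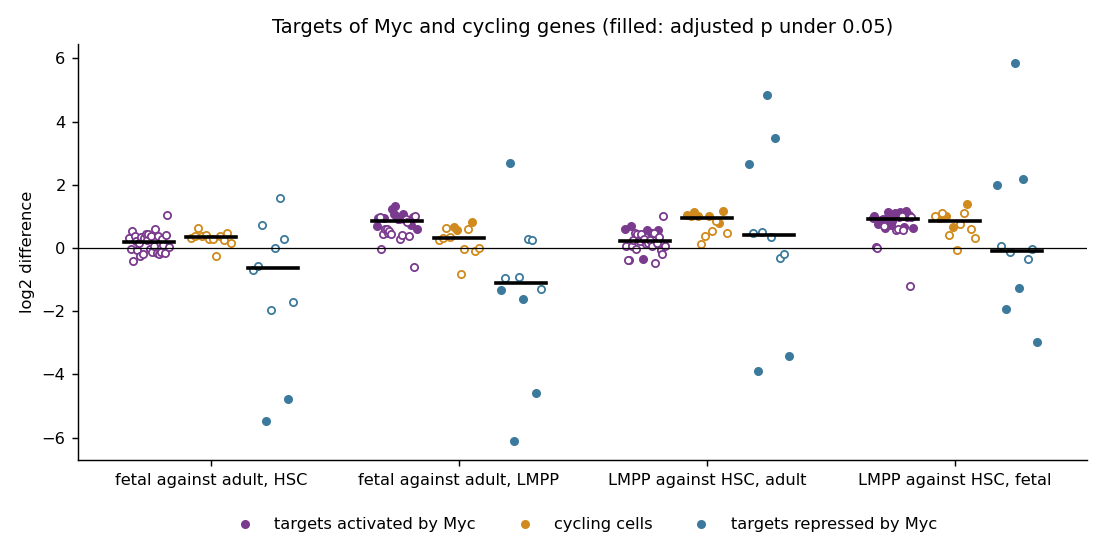
Log2 differences of single genes in 3 lists for the 4 comparisons: genes activated by Myc (30), genes of dividing cells (12) and genes repressed by Myc (10, without Cdh2, which is at 0 in adult HSC). Points are genes, filled where the adjusted p is under 0.05, and black bars are medians; the activated targets lie near 0 in fetal against adult HSC (median 0.20) and near 0.9 in both comparisons that end in fetal LMPP.

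In the protein machinery around the family, calls stood beside 7.08% of all tested genes higher in fetal than in adult LMPP and 8.21% higher in fetal LMPP than in fetal HSC. Of 10 corepressor genes used by Mxd proteins and Mnt, Rbbp4, a histone-binding subunit, was higher in fetal LMPP than in adult LMPP (0.56 ± 0.15, adjusted p = 0.031) and than in fetal HSC (0.91 ± 0.17, adjusted p = 0.0063), and Sap30, a Sin3 subunit, was higher in the latter comparison (1.10 ± 0.34, adjusted p = 0.045). The Sap30 call was lost when any 1 fetal library was left out (adjusted p 0.079 to 0.25) and with RLE size factors (0.053), and the fetal call of Rbbp4 without fetal HSC 1 (0.07). Of 14 coactivators and partners of Myc, the ATPase Ruvbl2 was higher in fetal LMPP in the same 2 comparisons (0.63 ± 0.16, adjusted p = 0.024, and 0.94 ± 0.18, adjusted p = 0.0074) and the elongation kinase Cdk9 in the first (0.45 ± 0.12, adjusted p = 0.031). The calls between ages were lost when any 1 LMPP library was left out for Rbbp4, and in the coactivator list without adult LMPP 1, adult LMPP 2, fetal LMPP 1 or fetal LMPP 2. The Ruvbl2 call between fetal LMPP and HSC was lost without fetal HSC 2 (0.095). Of the coactivators 7 were called between ages in LMPP without the 3 libraries that stood apart. In that fit 4410 of all genes were called, against 2263 with all libraries. Of the 3 tested partners of Max and Mlx (Mga, Mlx and Mlxip), edgeR over all 11 libraries and DESeq2 called 0 in every comparison. In the edgeR fit 0 of them had an unadjusted p under 0.05. With a term for the 3 libraries that stood apart 1 was called between adult LMPP and HSC, where 4713 of all genes were called.

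Among 12 genes that control the stability of Myc protein, Skp2, an F-box protein that ubiquitinates Myc, was higher in the fetus in both cell types. It stood at 38.1 against 86.9 CPM in HSC (1.19 ± 0.20, adjusted p = 0.0067) and at 52.0 against 121 CPM in LMPP (1.22 ± 0.19, adjusted p = 0.002). The deubiquitinase gene Usp28 was higher in fetal than in adult LMPP (0.91 ± 0.22, adjusted p = 0.021), and Cip2a and Aurka, whose products protect Myc and Mycn proteins, were higher in adult LMPP than in adult HSC (1.15 ± 0.25, adjusted p = 0.011, and 1.17 ± 0.33, adjusted p = 0.034). The 12 genes thus held 1 call between ages in HSC, 2 between ages in LMPP and 2 between the adult cell types, beside 4.95%, 15.4% and 17.1% of all tested genes. Aurka lost its call with only the 2 groups fitted (adjusted p = 0.094) and without adult HSC 1 (0.11), adult HSC 2 (0.11), adult LMPP 1 (0.076) or adult LMPP 3 (0.11), and Usp28 with only the 2 groups fitted (0.059) and without fetal LMPP 3 (0.08). Fbxw7, the ubiquitin ligase subunit best known for degrading Myc in HSC, stood at 13.7 to 22.0 CPM in the group means, with no call (0.05 ± 0.46 between ages in HSC, adjusted p = 0.98). The list had no call between ages in HSC without fetal HSC 1 or fetal HSC 2. It had 5 calls between ages in LMPP without the 3 libraries that stood apart, where 4410 of all genes were called.

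Sums of markers of other cell types differed between groups for some lists and overlapped for others. All 8 erythroblast markers were in the table, and their sum was 79.1 to 199 CPM in adult HSC and 975 to 1110 CPM in fetal HSC, and 24.1 to 51.4 CPM in adult LMPP against 135 to 432 CPM in fetal LMPP. The 6 megakaryocyte markers summed to 620 to 1580 CPM in adult HSC, 119 to 218 CPM in fetal HSC and at most 54.4 CPM in LMPP. The 7 neutrophil markers, which include the progenitor genes Mpo and Elane, summed to at most 218 CPM in HSC and at least 1870 CPM in LMPP. The 5 T and NK cell markers summed to 257 to 363 CPM in adult LMPP and 37.7 to 52.2 CPM in fetal LMPP, with 2 and 3 of them at 0 in every library, and to 53.7 to 119 CPM in adult HSC and 6.53 to 8.22 CPM in fetal HSC, with 3 and 4 at 0. The 5 mast cell and basophil markers summed to 5.56 to 129 CPM in adult HSC against 2.22 to 3.58 CPM in fetal HSC, and to 19.7 to 72.1 CPM in adult LMPP against 4.29 to 9.65 CPM in fetal LMPP. The 7 hepatocyte markers summed to 7.35 to 55.5 CPM in fetal HSC and 10.8 to 54.9 CPM in fetal LMPP, against 10.6 to 20.2 CPM in the adult groups, and the 6 macrophage markers to at most 32.1 CPM in HSC, 58.2 to 71.1 CPM in adult LMPP and 77.0 to 171 CPM in fetal LMPP. The 6 B cell markers overlapped between ages, at 37.4 to 81.6 CPM in adult HSC, 50.6 to 65.6 in fetal HSC, 63.6 to 90.7 in adult LMPP and 73.9 to 93.3 in fetal LMPP. The 7 endothelial and stromal markers summed to 25.6 to 65.7, 97.2 to 123, 75.9 to 165 and 62.3 to 102 CPM in the same order. The part of these cell types in the differences of the Myc and Mxd genes was not tested.

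Across the 11 libraries the genes whose log2 CPM followed Myc most closely, of 10148 with a mean of at least 5 CPM, were Serpinb1a, a protease inhibitor of leukocytes, Spns3 and the gasdermin gene Gsdme (Pearson r = 0.984, 0.975 and 0.969). Those nearest to Mycn were Ndn (necdin), Mpzl1 and Cdkn1c (0.990, 0.987 and 0.984), and those nearest to Mycl were Gfra1, Rpl13a and Il7r (0.991, 0.984 and 0.981). The nearest were Sytl1, Nxt2 and Traf3ip2 for Mxd4 (0.971, 0.934 and 0.930), Prrg4, Gatm and Pck2 for Mxi1 (0.969, 0.967 and 0.967), and Ulk1, Arhgap33 and Nek9 for Mnt (0.975, 0.968 and 0.968). They were Atg9a, Slfn9 and Atp10d for Mxd1 (0.964, 0.950 and 0.945) and Tmem160, Cenpl and Ubald1 for Mxd3 (0.959, 0.954 and 0.946). Max had the lowest values, with Sirt5, Vamp4 and Prepl (0.841, 0.838 and 0.828). Myc and Mycn themselves had r = −0.645. The points are libraries of 4 groups, so group differences enter every value.

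At the start sites, the authors' peak lists held a peak within 1000 bases for all 9 genes in adult HSC, fetal HSC and adult LMPP, and for 8 in fetal LMPP, where Mxd3 had none. Among all tested genes the shares were 83.4%, 81.8%, 80.6% and 76.4%. The lists held 53068, 48286, 50579 and 37156 distinct peaks in the same order, with 1 list per group and no measure of spread, so the lists are described and not tested. Within a list, a peak is given by the share of its peaks with an equal or higher signal value, the authors' own measure. Ranks in lists of different length show no change between groups. The peaks at Max, Mxd1 and Mxd4 were among the strongest 18.1% of every list, for example in the first 5.25% at Max in fetal HSC and the first 5.14% at Mxd1 in fetal LMPP. The peak at Myc (in adult HSC at chr15:61984881-61985829) was in the lower part of every list, at 63.4% to 70.4%. The best Mycn peak, in adult HSC at chr12:12942181-12942880, has its summit 669 bases before the start and stood at 57.7%, 39.2%, 37.9% and 82.7% in the 4 lists. Mycn had a peak there in adult LMPP although its RNA was lowest in that group, and Mycl had start-site peaks in both HSC lists although no Mycl read was counted in HSC.

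Within 50 kb of the 9 start sites, away from the start sites in the count table's annotation, the lists held 23 regions in adult HSC, 20 in fetal HSC, 25 in adult LMPP and 14 in fetal LMPP. The lists themselves held 53068, 48286, 50579 and 37156 peaks in the same order. One of the regions, chr19:53310318-53310985, overlaps the window of another RefSeq entry of Mxi1. Mycl was the one gene with more of these distal regions in both LMPP lists (5 in the adult and 6 in the fetus) than in either HSC list (3 each). The regions at chr4:123013881-123014487 and chr4:123018989-123019436, downstream of the gene, were in both LMPP lists and in neither HSC list, and the start of Trit1, not of Mycl, is the nearest to them. Another downstream region, chr4:123025736-123026905, also nearest to Trit1, was in all 4 lists, at 59.9% in adult HSC, 23.6% in fetal HSC, 1.63% in adult LMPP and 0.775% in fetal LMPP. Mxd4 had 5 distal regions in adult LMPP, the group with its highest RNA, and 1 in each other list. One of the 5, chr5:34196255-34196940 upstream of the gene, stood at 19.1% in adult LMPP and was also in the fetal LMPP list (45.1%). The others were weak, at 79.0% to 97.7% of the adult LMPP list. Around Mycn there were 2 at most, and none in fetal LMPP.

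The window from 1.6 to 1.8 Mb downstream of Myc holds a cluster of enhancers known to drive Myc in mouse blood stem and progenitor cells. It held 10 regions in all, 9 in the adult HSC list, 8 in fetal HSC, 8 in adult LMPP and 4 in fetal LMPP, and 4 regions were in every list. The strongest lay 1662.9 kb downstream at chr15:63648018-63648665 and stood at 7.34%, 4.23%, 5.9% and 10.2% of the lists. A region 1680.3 kb downstream, chr15:63665214-63665942, stood at 11.1% in adult HSC and 11% in fetal HSC, at 75.9% in adult LMPP, and was not in the fetal LMPP list. Another, 1719.5 kb downstream at chr15:63704354-63705407, was in the 2 adult lists alone, at 66.8% in HSC and 18.8% in LMPP. Fetal HSC, the group with the least Myc RNA, thus had 8 of the 10 regions, and fetal LMPP, with more Myc RNA, had 4. The fetal LMPP list was also the shortest, with 37156 peaks against 48286 in fetal HSC. Peaks in this window made up 0.0108% of the fetal LMPP list and 0.0166% of that of fetal HSC. In the adult these shares were 0.017% for HSC and 0.0158% for LMPP. Whether the window differed between groups beyond list length was not tested. The window from 1.2 to 1.35 Mb downstream, which holds a Notch-dependent Myc enhancer of T cells, held 1 region in adult HSC and none in the other lists. That region was weak, at 84.3% of the adult HSC list, the longest of the 4.

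**Figure D5:**
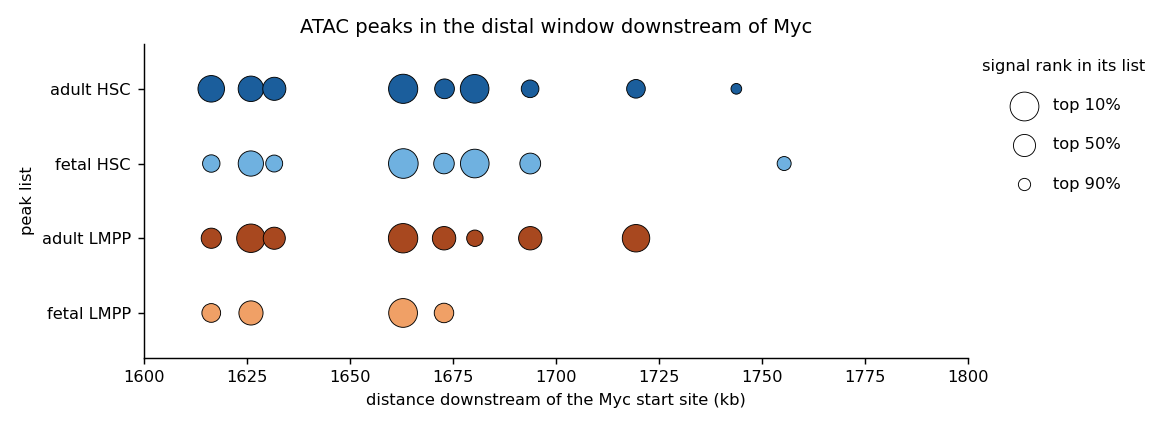
ATAC peaks in the window 1.6 to 1.8 Mb downstream of the Myc start site, 1 row per peak list. Circles are peaks at their distance from the start in kb, and larger circles are stronger within their own list. The peak near 1663 kb is large in all 4 rows, and the fetal LMPP row, from the shortest list, has 4 peaks.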

How the data were processed

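RNA from 11 libraries was analysed from the estimated counts that the authors deposited, made with HOMER analyzeRepeats over exons in mm10 with 1 transcript per gene, per the file headers. Of these values 22.5% were not whole, and they were rounded. The submitters' processing notes also name Trim Galore, STAR, RSEM and DESeq2, without roles. Of 25124 genes, 14720 passed filterByExpr. edgeR 4.0.16 in R 4.3.3 fitted a quasi-likelihood model of the 4 group means to all 11 libraries with TMM scaling (common biological coefficient of variation 0.372, prior df 3.458), and p-values were adjusted by Benjamini-Hochberg over all tested genes. CPM are counts relative to the TMM-scaled library size, and log2 CPM used a prior count of 2. The interaction is the LMPP age difference minus the HSC age difference.

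The 9 members and all lists were chosen with earlier results of these data known. All members are named, from each pathway list up to 3 called genes with the lowest p in a comparison (others where a count needed them, chosen after their values were seen), and the genes most like each member. In the adult, same-numbered deviations of HSC and LMPP correlated at 0.153, 0.306 and 0.472, from the data and not the labels. Libraries 1 and 2 also correlated across numbers (0.128 and 0.216), and both with library 3 at −0.194 to −0.372. These values do not show pairing by number beyond the 2 libraries numbered 3. A block for replicate numbers changed no member's call in the adult comparison. The p-values measure the spread between these libraries. The 4 peak lists hold the signal value per peak that the authors deposited, 1 list for the 2 ATAC libraries of each group; Bowtie2 2.3.5, Picard, SAMtools 1.9 and MACS2 are named in the submitters' processing notes. Peaks with several summits were counted once. Promoter sequences are from RefSeq, GRCm38.p6. The model was run on simulated counts that had less spread between libraries than these data. Changes were placed in fetal LMPP alone and only the LMPP age comparison was run, so the HSC comparisons and the interaction were not covered. Alternatives were RLE factors, DESeq2 1.42.0, other filters, only the groups compared, the block, and each library left out; those without, or with a term for, the 3 libraries that stood apart were chosen after seeing the data.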

Additional observations from a re-analysis of the deposited data

Results flagged for a closer look

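Of the results above, 2 were marked because the fetal minus adult difference itself differed between the cell types in a test of that difference (edgeR interaction term, adjusted over 14720 genes). For Myc the difference in LMPP exceeded that in HSC by 1.39 on the log2 scale (95% interval 0.90 to 1.87): fetal HSC were below adult HSC in 2 of 2 libraries, and fetal LMPP were below adult LMPP in 3 of 3 by a small margin. For Mycn the excess was 1.93 (95% interval 1.24 to 2.62): fetal LMPP were above adult LMPP in 3 of 3 libraries, and fetal HSC above adult HSC in 2 of 2 by a small margin.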

How the results depend on the processing

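No called difference changed direction. Uncalled log2 differences near 0 did (adjusted p of at least 0.63). Mnt between ages in HSC (0.14) was −0.02 with the replicate block, −0.26 without the 3 libraries that stood apart, −0.21 with a term for them and −0.25 to 0.62 with 1 library left out. Between ages in LMPP (−0.19) Mnt was 0.08 with the block and ran from −0.61 to 0.26, and between adult cell types (−0.37) from −0.83 to 0.10. Its interaction (−0.33) was 0.10 with the block, 0.17 with the term and −0.80 to 0.12. Mxi1 between ages in HSC (−0.04) was 0.03 with the term and −0.13 to 0.05. With 1 library left out, Max between adult cell types (0.03) ran from −0.13 to 0.14, Mxd4 between fetal cell types (−0.09) from −0.35 to 0.10, and the Mxd3 interaction (−0.35) from −0.61 to 0.05. The comparisons come in the order HSC with age, LMPP with age, adult LMPP against HSC, fetal LMPP against HSC, and interaction. Leaving out 1 library at a time, the members called numbered 1 to 1, 1 to 4, 2 to 4, 3 to 5 and 0 to 2. For pathway list genes these ranges were 1 to 4, 20 to 28, 9 to 28, 8 to 28 and 0 to 2. For all genes they were 213 to 711, 1366 to 1855, 1618 to 3097, 598 to 2006 and 32 to 170, against 729, 2263, 2516, 2658 and 137. Without the 3 libraries that stood apart, list genes called were 21, 52, 35, 60 and 10 and all genes called 2337, 4410, 4308, 5549 and 789. With a term for those libraries these were 18, 55, 40, 53 and 13, and 1923, 4985, 4713, 4782 and 856. Members called were then 2, 5 and 5 in the first 3 comparisons, and 2 in HSC without the libraries. DESeq2 called 6 list genes in HSC and 8 in the interaction, and 1544, 3407 and 667 of all genes in HSC, LMPP and the interaction. Fitting only the groups compared gave 9 list genes in adult LMPP against HSC, and 4014 of all genes in fetal LMPP against HSC. The cause of these shifts was not tested.

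Outside the adult comparison, same-numbered deviations correlated at 0.0602 and 0.0974 in HSC and at −0.138, 0.0808 and −0.167 in LMPP. Between the fetal cell types they correlated at −0.0159 and −0.0612. The deviations of the 2 fetal HSC libraries mirror each other. Where fetal HSC enters, the values across numbers are therefore exact opposites and give no separate check of pairing. With the replicate block Mxi1 had an adjusted p of 0.062 between fetal LMPP and HSC, the members called in the interaction stayed at 2, and the genes called there numbered 86. Among peaks in the upper 50% of signal values, the start sites with a peak numbered 3 in adult HSC, 5 in fetal HSC, 4 in adult LMPP and 4 in fetal LMPP, and over all peaks, distal regions within 20000 bases numbered 14, 10, 16 and 8 in the same order. With 2 fetal HSC libraries, differences that involve them have the widest margins, and the 95% interval of Mnt between ages in HSC ran from −1.38 to 1.67.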
